A study of Mus musculus with 6 samples.

Results

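The prostaglandin genes described here are *Ptgs1*, *Ptgs2*, *Ptges*, *Ptgis*, *Ptger1*, *Ptger2*, *Ptger4*, *Ptgfr*, *Ptgir* and *Hpgd*, 10 of the 19446 genes measured by RNA-seq in cultured cardiac fibroblasts (CFs). They were taken by gene symbol from the steps of prostaglandin synthesis, reception and inactivation, and each had a row of its own. All 10 were among the 15948 genes tested, which had at least 10 reads in at least 2 libraries, although *Hpgd* had 0 reads in 2 libraries and *Ptgfr* had 1 read in another.

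Polyadenylated RNA had been sequenced from 3 wild type (WT) and 3 CharmeKO cultures of 5-week-old mice, to ask how CFs are altered when the cardiac long non-coding RNA *Charme* is lost. CharmeKO animals carry a polyadenylation signal inserted into the *Charme* locus, and the study's methods give the background as C57BL/6J. The same methods describe the cultures of both genotypes as outgrowths from pieces of atrial tissue pooled from littermates, kept on fibronectin in IMDM medium with serum, and the labels name no further treatment. The labels number the libraries 1 to 3 within each genotype without saying which animals or cultures the numbers stand for. The study's methods state at least 3 independent primary isolations for each experiment, without tying them to these numbers. The p-values below therefore measure the spread between these libraries, part of which may be technical. The feature taken as *Charme*, the only row without an Ensembl identifier, had 5, 15 and 11 reads in WT and 0, 6 and 3 reads in CharmeKO, which is an inferred match and too few reads for a firm check of the labels.

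The libraries held between 38330019 and 46797446 reads on genes, so that the 3 reads that a count of 0 allows correspond to 0.0641 to 0.0783 CPM (counts scaled to the library total), for counting error only. All 10 fibroblast markers were measured, as the fibroblast label implies, and summed to 20967 to 52219 CPM per library. The sum rested mostly on the collagen genes *Col1a1*, *Col1a2* and *Col3a1* (means of 15247, 11497 and 6997 CPM). The other markers averaged from 21.5 CPM (*Tcf21*) to 913 CPM (*Dcn*). Of these 10, 6 had a positive and 4 a negative log2 difference between genotypes (median 0.14), and the groups did not overlap for *Ddr2*, a collagen receptor, at 14697, 14651 and 17702 normalised reads in WT and 11929, 13741 and 14410 in CharmeKO. Cardiomyocyte markers summed to 3.30 to 18.6 CPM per library and endothelial markers to 1.50 to 6.15 CPM, with *Myh6*, *Myh7*, *Nppa* and *Myl7* not analysed here. Markers of other cell types or states were uneven between libraries. Macrophage markers summed to 25.6 to 437 CPM, mesothelial markers to 21.9 to 345 CPM and smooth muscle and myofibroblast markers to 261 to 5804 CPM. Fibroblasts can convert to myofibroblasts, so that the last sum need not stand for a separate lineage. The sums are set beside prostaglandin genes below. Libraries of the 2 genotypes that bear the same number deviated from their group means together, as given in the processing notes, and the differences within same-numbered pairs are therefore shown for each gene. The match of the libraries numbered 3 was no closer than that of WT replicate 2 with CharmeKO replicate 3.

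Prostaglandins are lipid mediators made from arachidonic acid, which phospholipases free from membranes and the cyclooxygenases convert to an unstable endoperoxide, prostaglandin H2. Terminal synthases turn this intermediate into prostaglandin E2, prostacyclin and related products, which act on G protein-coupled receptors at the cell surface and are then taken up and oxidised to inactive forms. In the heart, fibroblasts are a known source of prostacyclin and prostaglandin E2, and receptors that raise cyclic AMP are known to restrain collagen synthesis and the conversion of fibroblasts to myofibroblasts.

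*Ptgs2*, the inducible cyclooxygenase, differed most between libraries among the 7 members with at least 10 reads in every library, and the genotypes were not separated. It lies on chromosome 1 (GRCm38, 150100031 to 150108227, plus strand). The WT libraries held 10689, 3719 and 21646 normalised reads in replicates 1, 2 and 3, that is, reads divided by the authors' size factor for each library. The CharmeKO libraries held 7597, 5529 and 701 normalised reads in the same order. WT replicate 3 was 2.03-fold above the next library and CharmeKO replicate 3 stood at the bottom, a 30.9-fold span, while the other 4 libraries overlapped. The group means were 12018 ± 9037 in WT and 4609 ± 3539 normalised reads in CharmeKO (SD, n = 3 each). The log2 difference, CharmeKO minus WT, was -1.62 with a standard error of 1.03 and a 95% interval from -4.09 to 0.84, so that neither a large decrease nor a modest increase lay outside it. The adjusted p of limma was 0.9999 for *Ptgs2*, as for each of the other members. Within the same-numbered pairs the log2 difference was -0.49, 0.57 and -4.95, and without pair 3 the fitted difference was 0.040. In bulk RNA, fewer cells that express a gene and less of its RNA per cell cannot be told apart, which holds for each value given here.

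*Ptgs1*, the cyclooxygenase that most tissues express constitutively, moved far less. The gene lies on chromosome 2 (36230426 to 36252272, plus strand). It held 4634, 8242 and 7974 normalised reads in the WT libraries and 5042, 5061 and 12674 in the CharmeKO libraries. CharmeKO replicate 3, the lowest library for *Ptgs2*, was the highest for *Ptgs1*, and the 2 genotypes overlapped. The means were 6950 ± 2010 and 7592 ± 4401 normalised reads (SD, n = 3 each), a log2 difference of 0.029 (SE 0.43, 95% interval -0.99 to 1.05). This small difference turned negative without WT replicate 1 (-0.24), without CharmeKO replicate 3 (-0.41), without pair 1 (-0.017) and without pair 3 (-0.29), which leaves its direction undetermined.

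The regions around the transcription starts of the cyclooxygenase genes are shown because these paralogues spanned such different ranges, 4.95 log2 units for *Ptgs2* and 1.45 for *Ptgs1* over the 6 libraries. Each window runs from 250 bases before to 30 bases after the RefSeq start in GRCm38.p6, on the plus strand, chr1:150099781-150100060 for *Ptgs2* and chr2:36230176-36230455 for *Ptgs1*. Capitals mark matches, on either strand, to the TATA box TATAAA, the E-box CACGTG, the core of the cyclic AMP response element TGACG (CRE core), the GC box GGGCGG or the CCAAT box CCAAT.
Ptgs2: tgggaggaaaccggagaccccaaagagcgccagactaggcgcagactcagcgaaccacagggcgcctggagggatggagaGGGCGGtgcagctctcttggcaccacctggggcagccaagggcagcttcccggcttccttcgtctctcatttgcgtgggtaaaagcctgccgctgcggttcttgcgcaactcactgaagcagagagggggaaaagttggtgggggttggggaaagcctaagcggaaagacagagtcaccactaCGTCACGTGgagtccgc
Ptgs1: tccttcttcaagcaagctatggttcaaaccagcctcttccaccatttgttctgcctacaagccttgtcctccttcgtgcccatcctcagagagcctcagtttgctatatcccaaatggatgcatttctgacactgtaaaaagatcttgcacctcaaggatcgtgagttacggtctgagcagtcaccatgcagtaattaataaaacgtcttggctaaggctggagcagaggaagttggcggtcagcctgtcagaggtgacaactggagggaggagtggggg
The *Ptgs2* window held 16 CpG dinucleotides and a GC box 170 bases before the start. Just after the start, at positions 14 and 17 counted from 1 at the start, it held the CRE core on the reverse strand (read as CGTCA) and an E-box, which overlap each other by 2 bases. The *Ptgs1* window held 5 CpG dinucleotides and none of these letters. Of 32851 mouse promoter windows of the same 280 bases, 34.7% held the GC box, 19.9% the CRE core, 6.79% the E-box, 13.1% the TATA box and 36.1% the CCAAT box, on either strand. A match is a description of the letters and not of a bound site.

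**Figure D1:**
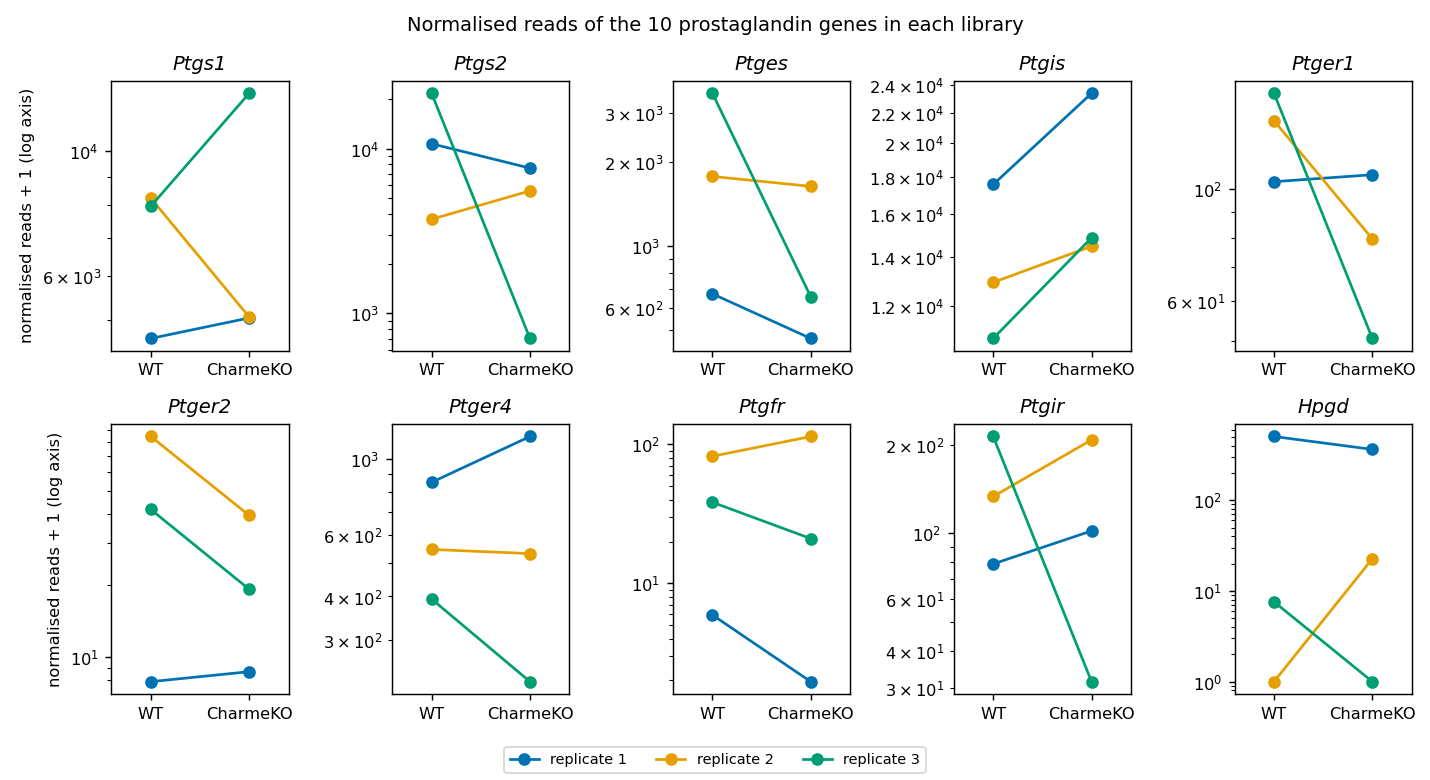
Normalised reads plus 1 (log axis, a separate scale for each gene) of the 10 prostaglandin genes in the WT and CharmeKO libraries, with lines joining libraries of the same replicate number. The points of the 2 genotypes overlap in every panel, *Ptges* descends and *Ptgis* ascends along all 3 lines, and *Ptgs2* runs from 21646 to 701 normalised reads along the line of replicate 3.

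The split of cyclooxygenase mRNA between the isoforms differed from library to library. Counted as CPM per kilobase of exon (CPM per kb), which allows levels of genes of unequal length to be compared, *Ptgs2* made up 66.2, 27.7 and 69.7% of the *Ptgs1* and *Ptgs2* sum in the WT libraries. In the CharmeKO libraries it made up 56.1, 48.1 and 4.48%. CharmeKO replicate 3 was thus almost wholly *Ptgs1*, whereas the sum itself, 83.9 CPM per kb, lay within the span of the other libraries (64.1 to 160 CPM per kb). The log2 ratio of *Ptgs2* over *Ptgs1* averaged 0.50 ± 1.43 in WT and -1.15 ± 2.63 in CharmeKO (SD, n = 3 each), a difference of -1.65 (exact permutation test, two-sided, p = 0.5, adjusted p = 0.5 over the 4 ratios computed, smallest p possible 0.1). Without pair 3 the difference was 0.33, so that its sign rested on that pair.

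*Ptges* encodes the inducible microsomal synthase that makes prostaglandin E2 and is commonly induced together with *Ptgs2*. The gene model lies on chromosome 2 (30889471 to 30929863, minus strand) and shares its span, but no exon base, with a predicted gene on the same strand. It held 673, 1771 and 3514 normalised reads in WT and 465, 1632 and 657 in CharmeKO. Each CharmeKO library lay below the WT library of the same number, by 0.53, 0.12 and 2.42 on the log2 scale, yet the groups overlapped because the replicate numbers differed more than the genotypes. The means were 1986 ± 1433 in WT and 918 ± 626 in CharmeKO (SD, n = 3 each), a log2 difference of -1.02 (SE 0.70, 95% interval -2.70 to 0.66). With the replicate number as a block the unadjusted p of limma was 0.0950 and that of DESeq2 0.0285, with adjusted p of 0.7997 and 0.699. *Ptges* remained lower in CharmeKO without any single library, between -1.65 and -0.46 on the log2 scale.

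The *Ptges* window is shown for comparison with that of *Ptgs2*. RefSeq places its start well inside the GENCODE gene model, so the window chr2:30903268-30903547 (minus strand, printed 5′ to 3′ on that strand) describes the RefSeq transcript alone.
Ptges: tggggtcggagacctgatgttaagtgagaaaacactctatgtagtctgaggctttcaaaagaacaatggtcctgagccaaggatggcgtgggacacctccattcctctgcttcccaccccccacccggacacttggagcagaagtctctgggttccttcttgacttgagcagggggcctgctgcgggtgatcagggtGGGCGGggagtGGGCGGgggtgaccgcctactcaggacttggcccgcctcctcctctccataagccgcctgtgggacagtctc
It held GC boxes 53 and 42 bases before the RefSeq start and 9 CpG dinucleotides, and neither the CRE core nor the E-box found in the *Ptgs2* window.

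*Ptgis* encodes prostacyclin synthase, a cytochrome P450 enzyme of the endoplasmic reticulum, and had the highest mean level of the 10 genes. It lies on chromosome 2 (167191805 to 167240604, minus strand). The WT libraries held 17553, 12906 and 10823 normalised reads and the CharmeKO libraries 23374, 14458 and 14849. *Ptgis* was higher in CharmeKO in all 3 same-numbered pairs, by 0.41, 0.16 and 0.46 on the log2 scale, while the groups overlapped through WT replicate 1. The means were 13761 ± 3445 and 17560 ± 5039 normalised reads (SD, n = 3 each), a log2 difference of 0.34 (SE 0.28, 95% interval -0.33 to 1.02). With the replicate block, the standard error of this difference was 0.11 and the 95% interval ran from 0.047 to 0.64. The unadjusted p was then 0.0316 by limma and 0.0162 by DESeq2, and neither passed the correction over all genes (adjusted p = 0.7997 and 0.544). The difference stayed positive without any single library, between 0.12 and 0.53.

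Of the 2 terminal synthases, *Ptgis* dominated the mRNA in each library. It accounted for 97.6, 91.8 and 82.5% of the *Ptges* and *Ptgis* sum of CPM per kb in WT and for 98.7, 93.1 and 97.2% in CharmeKO. The lowest share was that of WT replicate 3, which had the most *Ptges* and the least *Ptgis*. The log2 ratio of *Ptges* over *Ptgis* averaged -3.06 ± 1.55 in WT and -4.43 ± 1.25 in CharmeKO (SD, n = 3 each) and was lower in CharmeKO in each pair. The difference of -1.37 gave p = 0.3 in the two-sided exact permutation test (adjusted p = 0.5) and p = 0.25 in the exact test over pairs, which is the smallest that 3 pairs can give. It was -2.19 without WT replicate 1 and -0.65 without WT replicate 3.

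**Figure D2:**
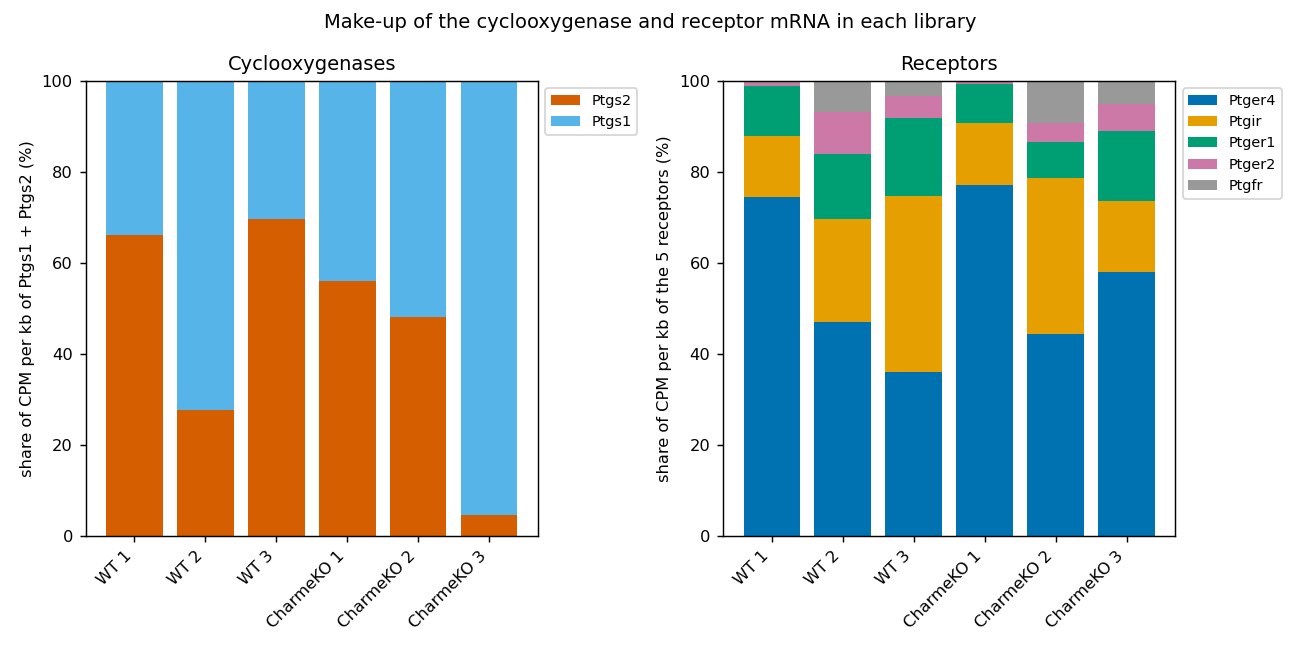
Share (%) of the summed CPM per kb of exon taken by each cyclooxygenase gene (left) and by each of the 5 receptor genes (right) in the 6 libraries, as stacked bars from 0 to 100%. *Ptgs2* takes 4.48% in CharmeKO replicate 3 and 27.7 to 69.7% elsewhere, and *Ptger4* takes its largest receptor shares in both libraries of replicate 1 (74.4 and 77.2%).

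Of the 5 receptors *Ptger4* had the highest mean level, although *Ptgir* exceeded it in WT replicate 3. It encodes EP4, a receptor for prostaglandin E2 that couples to the stimulatory G protein and raises cyclic AMP. The gene lies on chromosome 15 (5206661 to 5244187, minus strand). Its normalised reads were 853, 546 and 392 in WT and 1157, 531 and 226 in CharmeKO, with the highest value of each genotype in replicate 1 and the lowest in replicate 3. The replicate number accounted for 88.0% of the variance of its log2 values and the genotype for 0.749%. The log2 difference was -0.13 (SE 0.61, 95% interval -1.60 to 1.34) and had no stable sign. It was 0.16 without WT replicate 1, 0.47 without CharmeKO replicate 3, 0.20 without pair 3, 0.094 by edgeR and 0.090 by DESeq2.

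*Ptger2* encodes EP2, the other receptor of prostaglandin E2 that raises cyclic AMP, and was scarce. The gene lies on chromosome 14 (44988195 to 45003820, plus strand). Its reads numbered 7, 78 and 37 in WT and 8, 39 and 21 reads in CharmeKO, or 6.89, 83.3 and 40.6 against 7.69, 38.3 and 18.3 normalised reads. Both libraries of replicate 1 were nearly devoid of it, whereas *Ptger4* was highest there. The log2 difference was -0.69 (SE 1.02, 95% interval -3.13 to 1.75) and reached 0.048 without WT replicate 2. The log2 ratio of *Ptger4* over *Ptger2* was 6.76, 2.70 and 3.24 in WT and 7.06, 3.76 and 3.56 in CharmeKO, higher in CharmeKO in each pair. Its difference of 0.56 gave p = 0.5 in the two-sided exact permutation test (adjusted p = 0.5) and turned to -0.21 without WT replicate 2 and to -0.57 without CharmeKO replicate 1.

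*Ptger1* encodes EP1, which couples to calcium signalling and does not raise cyclic AMP. It lies on chromosome 8 (83666678 to 83672753, plus strand). It held 102, 136 and 154 normalised reads in WT and 106, 78.7 and 49.6 in CharmeKO. The groups overlapped by a narrow margin, since CharmeKO replicate 1 lay just above WT replicate 1, and the pair differences were 0.046, -0.78 and -1.61 on the log2 scale. The log2 difference of -0.78 (SE 0.40, 95% interval -1.75 to 0.19) stayed negative without any single library, from -1.03 to -0.49. Genotype accounted for 54.5% of the variance of its log2 values, the largest share among the 10 genes, but the unadjusted p of limma was 0.0967.

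*Ptgir* encodes IP, the prostacyclin receptor, which raises cyclic AMP. The gene lies on chromosome 7 (16906490 to 16910905, plus strand). Its normalised reads were 77.8, 132 and 212 in WT and 101, 206 and 30.4 in CharmeKO. Replicates 1 and 2 were higher in CharmeKO, by 0.37 and 0.64 on the log2 scale, and replicate 3 was lower by 2.76. The fitted difference of -0.58 (SE 0.76, 95% interval -2.39 to 1.23) became 0.15 without CharmeKO replicate 3 and 0.50 without pair 3.

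*Ptgfr* encodes FP, the receptor of prostaglandin F2α. It lies on chromosome 3 (151796502 to 151837630, minus strand). The WT libraries had 5, 76 and 34 reads of it and the CharmeKO libraries 1, 115 and 23, so that both libraries of replicate 1 were at the edge of detection. The replicate number accounted for 93.1% of the variance of its log2 values. The log2 difference was -0.66 (SE 1.65, 95% interval -4.61 to 3.29), but 0.12 by edgeR and by DESeq2, 0.15 without WT replicate 2 and 0.88 without CharmeKO replicate 1, so that no direction can be given.

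Read together, the 5 receptors summed to 4.06, 4.27 and 3.88 CPM per kb in WT and 5.24, 4.60 and 1.44 CPM per kb in CharmeKO. CharmeKO replicate 3 lay below the narrow span of the other 5 libraries. *Ptger4* took 74.4, 47.0 and 35.9% of this sum in WT and 77.2, 44.3 and 58.0% in CharmeKO. *Ptgir* took 13.4 to 38.8% and *Ptger1* 7.99 to 17.2%, while *Ptger2* and *Ptgfr* each took at most 9.25%. The make-up thus resembled the replicate number more than the genotype in replicates 1 and 2, as the plot of receptor shares shows.

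*Hpgd* encodes 15-hydroxyprostaglandin dehydrogenase, the enzyme that begins the inactivation of prostaglandins, and was nearly confined to the libraries numbered 1. The gene lies on chromosome 8 (56294585 to 56321043, plus strand) and shares no exon base with the predicted gene that spans it on the same strand. The WT libraries had 511, 0 and 6 reads of it and the CharmeKO libraries 377, 22 and 0, or 503, 0 and 6.59 against 362, 21.6 and 0 normalised reads. In CPM this was 11.8 and 8.43 in replicate 1 of WT and CharmeKO, 0.552 in CharmeKO replicate 2 and 0.156 in WT replicate 3, and a count of 0 allows up to 0.0783 CPM in WT replicate 2 and 0.0641 CPM in CharmeKO replicate 3. The difference between genotypes could not be resolved, with a log2 difference of 0.37, a standard error of 2.85 and a 95% interval from -6.47 to 7.21. It was -0.41 by edgeR and by DESeq2, -1.62 without WT replicate 2, -0.15 without WT replicate 3, -1.72 without CharmeKO replicate 1 and -1.70 without pair 2.

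The *Hpgd* window is shown because this gene spanned the widest range of the 10, 8.98 log2 units. It runs over chr8:56294302-56294581 on the plus strand, around the RefSeq start, which lies 33 bases before that of GENCODE.
Hpgd: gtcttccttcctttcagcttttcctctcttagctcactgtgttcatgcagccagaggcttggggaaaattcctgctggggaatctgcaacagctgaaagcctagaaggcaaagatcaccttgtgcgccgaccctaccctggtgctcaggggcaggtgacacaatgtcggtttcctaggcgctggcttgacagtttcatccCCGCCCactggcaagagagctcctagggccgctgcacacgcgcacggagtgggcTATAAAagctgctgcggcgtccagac
It was the only printed window with a TATA box, which begins at position 5 (the RefSeq start counted as position 1), 29 bases before the GENCODE start. It also held a GC box on the reverse strand, 50 bases before the RefSeq start, and 11 CpG dinucleotides. RefSeq windows could be matched for 8 of the 10 genes, all but *Ptgis* and *Ptger1*.

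The summed level of markers of the mesothelium, the epithelium that covers the heart, ordered the libraries as *Hpgd* did, apart from the order within replicate 1 and between the libraries at 0. The 9 measured markers of the 10 listed summed to 310 and 345 CPM in replicate 1 of WT and CharmeKO, against 93.1 CPM in CharmeKO replicate 2, 65.4 in WT replicate 3, 39.5 in WT replicate 2 and 21.9 in CharmeKO replicate 3. The leading marker *Upk1b*, a uroplakin, held 4648, 71.5 and 307 normalised reads in WT and 4430, 71.8 and 20.9 in CharmeKO. Unlike *Hpgd*, it was higher in WT replicate 3 than in CharmeKO replicate 2. The sum was carried by *Upk3b*, *Upk1b* and *Lrrn4*, and other markers went another way, named here after their values were seen. *Wt1* was lowest in WT replicate 1 (213 normalised reads) and highest in CharmeKO replicate 2 (1500.2), *Krt19* was highest in WT replicate 3 (781) and *Krt18* in CharmeKO replicate 2 (75.7). No defining marker of this list was at 0 in replicate 1, whereas *Muc16* was at 0 in both libraries of replicate 2 and *Cdh1* in WT replicate 2. Both genes were too scarce to be tested, with at most 5.77 (*Muc16*) and 4.39 (*Cdh1*) normalised reads in any library. WT replicate 3 held more of both than WT replicate 1, so that these zeros set no library apart. The order of *Hpgd* was not particular to this list. The endothelial marker *Cdh5*, also named after its values were seen, had the same order of libraries. It held 44.3, 0 and 2.20 normalised reads in WT and 33.7, 25.6 and 0 in CharmeKO, whereas *Kdr* and *Egfl7* of the endothelial list did not follow that order. The part of these markers in the level of *Hpgd* was not tested.

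**Figure D3:**
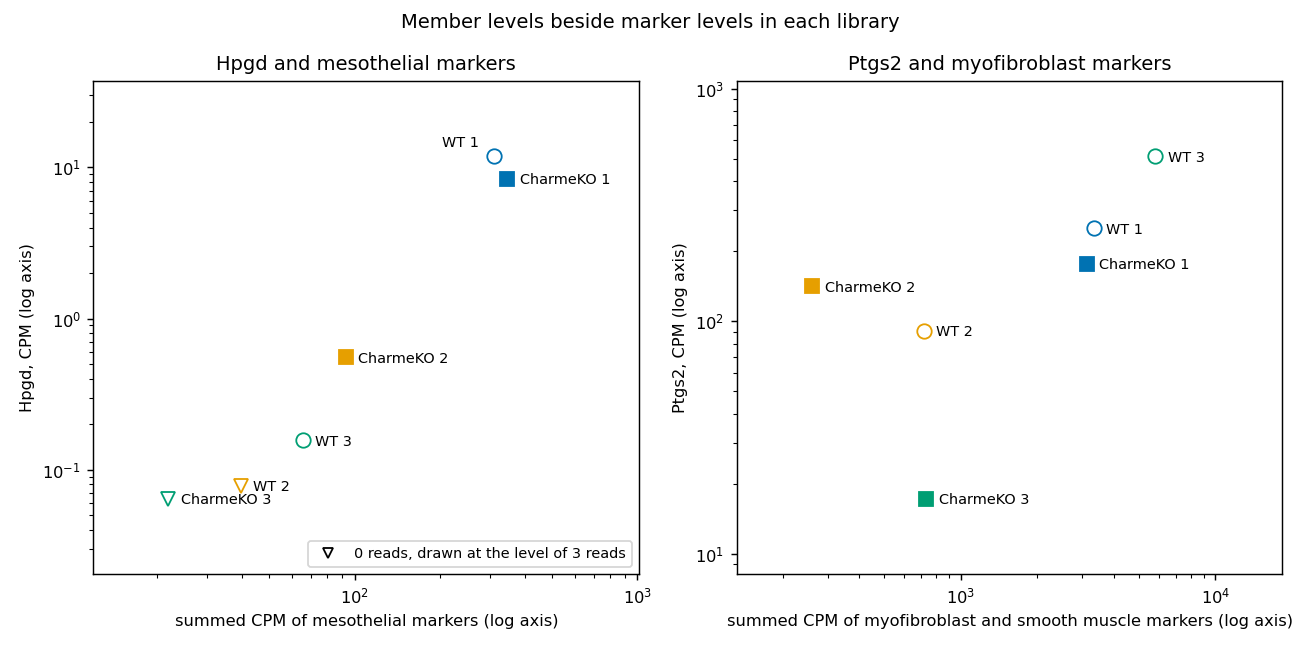
CPM of *Hpgd* against the summed CPM of 9 mesothelial markers (left) and CPM of *Ptgs2* against the summed CPM of 8 smooth muscle and myofibroblast markers (right), both axes logarithmic, 1 symbol per library (open circles WT, filled squares CharmeKO, triangles libraries with 0 reads drawn at 3 reads). *Hpgd* is highest, at 11.8 and 8.43 CPM, in the libraries with 310 and 345 CPM of mesothelial markers, and the 2 libraries with 716 and 734 CPM of smooth muscle markers differ in *Ptgs2*, 90.9 against 17.2 CPM.

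Smooth muscle and myofibroblast markers were set beside *Ptgs2* in the same way. The 8 markers summed to 3330, 716 and 5804 CPM in WT and 3131, 261 and 734 CPM in CharmeKO. WT replicate 3 was the highest for both the sum and *Ptgs2*, followed by both libraries of replicate 1. Among the other libraries the order differed, since CharmeKO replicate 2, with the lowest sum, had 141 CPM of *Ptgs2*, and CharmeKO replicate 3, with a sum near that of WT replicate 2, had 17.2 CPM against 90.9. *Acta2*, smooth muscle actin and the leading marker, held 96903, 18191 and 155862 normalised reads in WT and 90719, 5415 and 20212 in CharmeKO. *Actg2*, the enteric smooth muscle actin, held 663, 221 and 1321 normalised reads in WT and 182, 53.1 and 134 in CharmeKO, without overlap of the groups. All 7 tested markers of the list had a negative log2 difference, with a median of -1.80 against 0.0022 for all genes tested, 0 passed the adjusted threshold of limma, 1 (*Actg2*) had an unadjusted p under 0.05, and DESeq2 with the replicate block called 2 (*Myh11* and *Actg2*). Their part in the levels of *Ptgs2* was not tested.

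Pericyte and macrophage markers also differed between the libraries. The 6 pericyte markers summed to 50.5, 148 and 193 CPM in WT and 37.4, 87.8 and 79.1 CPM in CharmeKO. All 6 had a negative log2 difference (median -1.41), although that of the leading marker *Notch3* was only -0.0047 (SE 0.51), with overlapping groups. *Cspg4*, the NG2 proteoglycan, held 450, 676 and 3663 normalised reads in WT against 241, 105 and 25.2 in CharmeKO. The 11 measured macrophage markers of 12 summed to 206, 126 and 47.4 CPM in WT and 437, 340 and 25.6 CPM in CharmeKO. *Ptger4* shared with this sum its highest library, CharmeKO replicate 1, and its 2 lowest, the libraries of replicate 3, while the second highest sum was that of CharmeKO replicate 2, with 531 normalised reads of *Ptger4*. That sum rested mostly on *Lyz2*, and the markers disagreed, with those given here named after their values were seen. Several were higher in WT replicate 1 than in CharmeKO replicate 2, as *Ptger4* was. Among them were *Cd68* (913 against 562 normalised reads), *Csf1r* (1427 against 336) and *Mrc1* (449 against 269). *Cd14* (102 against 793), *C1qa* (102 against 233) and *C1qc* (190 against 198) were lower there, as *Lyz2* was. *Lyz2*, lysozyme, led the macrophage list with 4919, 3181 and 1012 normalised reads in WT and 12791, 10470 and 278 in CharmeKO, and *Ptprc*, the leukocyte antigen CD45, was at 0 in CharmeKO replicate 3. Their part in the levels of the receptors was not tested. Over the tested markers of each list, the log2 differences between genotypes were positive for 6 and negative for 5 macrophage markers (median 0.032), 3 and 4 mesothelial markers (median -0.028), 2 and 2 endothelial markers (median -0.31) and 2 and 1 cardiomyocyte markers (median 0.20). The leading endothelial marker *Egfl7* held 15.8 to 107 normalised reads and the leading cardiomyocyte marker *Tnnt2* 57.1 to 757. In these marker lists limma called 0 genes at the adjusted threshold, and *Actg2* and *Cspg4* had an unadjusted p under 0.05. The groups did not overlap for 1 of 10 tested fibroblast markers (*Ddr2*), 1 of 7 smooth muscle markers (*Actg2*) and 1 of 6 pericyte markers (*Cspg4*). The other marker lists held 0 such genes, and 4.11% of all genes tested had groups without overlap.

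Across the 6 libraries the levels of the 10 genes spanned orders of magnitude. *Ptgis* averaged 147 ± 38.1 CPM per kb (SD, n = 6), with a range from 99.7 to 212 that lay apart from that of *Ptgs1*, and was exceeded within a library only in WT replicate 3, where *Ptgs2* reached 112. *Ptgs1* (45.4 ± 19.7) and *Ptgs2* (43.3 ± 37.7 CPM per kb) followed, and each was the higher of the pair in 3 of the 6 libraries, so that their order is not resolved. *Ptges* averaged 8.94 ± 6.95 CPM per kb. The receptors and *Hpgd* were lower, with 2.22 ± 1.15 CPM per kb for *Ptger4*, 2.08 ± 3.12 for *Hpgd*, 0.922 ± 0.538 for *Ptgir*, 0.459 ± 0.161 for *Ptger1*, 0.157 ± 0.168 for *Ptgfr* and 0.153 ± 0.136 for *Ptger2*. The ranges of all neighbours in this order below *Ptgis* overlapped, although *Ptgir* exceeded *Ptger1* within each of the 6 libraries. On average, the synthesis enzymes among the 10 genes were thus read more than the receptors among them.

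Against the whole table, most of the 10 genes were more uneven between libraries. The range of log2 values over the 6 libraries was above 2 in 7 of the 10 genes (70%) and in 24.8% of all genes tested, or 16.6% of those with a mean of at least 1 CPM. The median range was 2.84 log2 units for the 10 genes and 1.07 for all genes tested. The 10 genes were chosen with earlier results of these data known, so that this comparison only describes them. Other genes of the pathway were even, such as *Ptges3* (0.41) and *Cbr1* (0.35 log2 units), or uneven, such as *Hpgds* (7.07) and *Slco2a1* (3.64). Genotype accounted for a median of 8.68% of the variance of the log2 values of the 10 genes and the replicate number for 71.3%, against 5.91 and 73.8% for all genes tested. The share of genotype was 54.5% for *Ptger1*, 27.8% for *Ptgs2*, 25.4% for *Ptges* and 24.4% for *Ptgis*, and below 10% for the others. With 6 libraries, noise alone gives each term some share, and these shares were not tested. The share of the replicate number ran from 4.67% for *Ptger1* to 93.1% for *Ptgfr*, and *Ptgs2* and *Ptgir* were the genes with most variance left over after both terms (60.4 and 67.1%).

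**Figure D4:**
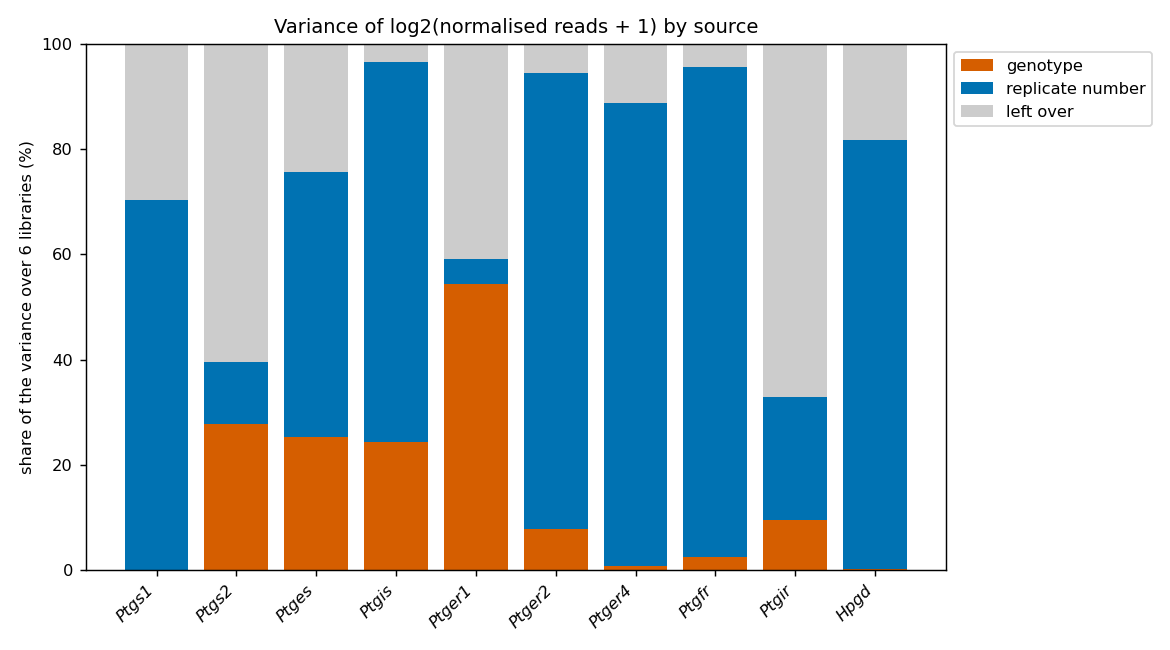
Share (%) of the variance of log2(normalised reads + 1) over the 6 libraries that goes with genotype, with replicate number and with neither, as stacked bars for the 10 prostaglandin genes. Replicate number takes the largest part for *Ptgs1*, *Ptges*, *Ptgis*, *Ptger2*, *Ptger4*, *Ptgfr* and *Hpgd*, and genotype takes the largest part only for *Ptger1* (54.5%).

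None of the 10 genes passed the adjusted threshold of 0.05. The count was 0 by limma (0% of all genes tested), by edgeR and by DESeq2, with or without the replicate block, although DESeq2 called 8 genes elsewhere in the table and 64 (0.401%) with the block. At an unadjusted p under 0.05, limma called 0 of the 10 genes and 0.897% of all genes. In the blocked fits, *Ptgis* alone passed that level by limma, as 5.37% of all genes did, and *Ptgis* and *Ptges* by DESeq2, as 5.59% did. Non-overlapping groups were found for 0 of the 10 genes and for 4.11% of all genes, 2.14% with higher and 1.98% with lower values in CharmeKO. *Ptgis* was higher in CharmeKO in all 3 pairs, like 16.4% of the genes tested, and *Ptges* lower in all 3 pairs, like 14% of them. A log2 difference of at least 1 in either direction was fitted for 2 of the 10 genes, *Ptgs2* and *Ptges*, and for 5.04% of all genes.

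More of the fitted differences were negative than positive, by a count that changed with the setting. The sign was negative for 7 and positive for 3 of the 10 genes (median -0.62). Of all genes tested, 7914 were negative and 8034 positive (median 0.0022). CharmeKO replicate 3 was the lowest library, or shared the lowest value, for 5 of the 10 genes (*Ptgs2*, *Ptger1*, *Ptger4*, *Ptgir* and *Hpgd*), and WT replicate 3 the highest for 4 (*Ptgs2*, *Ptges*, *Ptger1* and *Ptgir*). Without that pair, 5 were negative and 5 positive, with a median of -0.13. The split was 6 to 4 by edgeR and by DESeq2 without the block, without WT replicate 2 and without CharmeKO replicate 3. It was 8 to 2 by DESeq2 with the block and without WT replicate 3, pair 1 or pair 2. The log2 ratio of *Ptgs2* over *Hpgd* compares the mRNA of 1 synthesis gene with that of the inactivation gene, and no enzyme activity was measured. It was 4.41 in WT replicate 1 and 4.39 in CharmeKO replicate 1, against 11.5 in WT replicate 3 and 7.93 in CharmeKO replicate 2. In WT replicate 2 and CharmeKO replicate 3, with 0 reads of *Hpgd*, the ratio is set by the pseudocount, and no test of it is given.

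**Figure D5:**
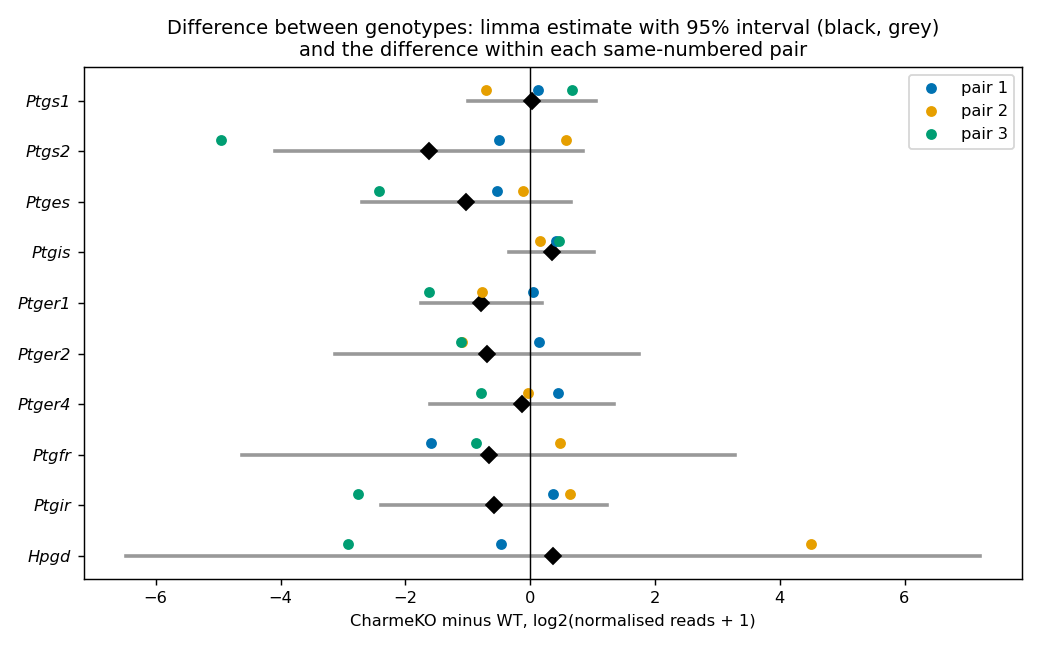
Difference between genotypes, CharmeKO minus WT on the log2(normalised reads + 1) scale, for the 10 prostaglandin genes, as the limma estimate (black diamonds) with its 95% interval (grey bars) and as the difference within each same-numbered pair (coloured points). All 10 intervals include 0, that of *Ptgis* is the narrowest (-0.33 to 1.02) and that of *Hpgd* the widest (-6.47 to 7.21).

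Other steps of the pathway were read from lists of genes named by role. Of the genes that release arachidonic acid or supply it, 9 of 13 were measured and tested, 3 with a positive and 6 with a negative log2 difference (median -0.32). *Pla2g15*, the lysosomal phospholipase A2 and the most abundant of them, held 2761, 4316 and 6111 normalised reads in WT and 2696, 3335 and 4438 in CharmeKO. It was lower in all 3 pairs, like 14% of all genes tested. *Pla2g4a*, the cytosolic phospholipase A2 that feeds the cyclooxygenases, held 2845, 1903 and 4834 normalised reads in WT and 2755, 1958 and 1209 in CharmeKO, and was named after its values were seen because its highest and lowest libraries were those of *Ptgs2*.

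Other terminal synthases and reductases of prostaglandin H2 were measured for 11 of 11 genes and tested for 9, of which 6 had a positive and 3 a negative log2 difference (median 0.050). *Ptges3*, the cytosolic E synthase that is also the cochaperone p23, was even, with 4887, 3956 and 5245 normalised reads in WT and 4787, 4606 and 5101 in CharmeKO. *Hpgds*, the haematopoietic prostaglandin D synthase, held 105, 15.0 and 3.30 normalised reads in WT and 134, 10.8 and 0 in CharmeKO, and was named after its values were seen because it was highest in the libraries numbered 1, as *Hpgd* was. Of the 4 other prostanoid receptors, 3 were measured and 2 tested. *Tbxa2r*, the thromboxane receptor, held 487, 509 and 535 normalised reads in WT and 432, 580 and 285 in CharmeKO, and it made up 49.8 to 71.3% of the CPM per kb of all 8 measured prostanoid receptors, more than *Ptger4* in each library.

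Carriers and reductases that clear prostaglandins were measured and tested for 8 of 8 genes, with 5 positive and 3 negative log2 differences (median 0.014). *Slco2a1*, the carrier that brings prostaglandins into the cell for oxidation, held 14162, 5741 and 3443 normalised reads in WT and 9620, 3832 and 43005 in CharmeKO. CharmeKO replicate 3, with 0 reads of *Hpgd* and the least *Ptgs2*, was by far the highest for this carrier. Carrier and dehydrogenase were therefore abundant together only in the libraries numbered 1.

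Genes of cytokine and NF-kB signalling, listed for the induction of *Ptgs2* or *Ptges*, were measured for 12 of 13 and tested for 11. Their log2 differences were positive for 8 and negative for 3 (median 0.20). The list also holds inhibitors of this signalling (*Il1rn*, *Nfkbia* and *Tnfaip3*), so that these signs are not those of inducers alone. *Cebpb*, a transcription factor of inflammatory genes, held 10703, 21081 and 13921 normalised reads in WT and 13098, 34746 and 23099 in CharmeKO. It was among the 4 of the 11 tested genes that were higher in all 3 pairs, as were 16.4% of all genes tested. Genes known to respond to cyclic AMP, the messenger of EP2, EP4 and IP, were measured and tested for 10 of 10, with 3 positive and 7 negative differences (median -0.078). *Nr4a1*, an immediate early nuclear receptor, held 5079, 22422 and 7635 normalised reads in WT and 3939, 30922 and 7479 in CharmeKO. Within each genotype, *Cebpb* and *Nr4a1* were highest in the library numbered 2, although *Cebpb* in CharmeKO replicate 3 exceeded WT replicate 2. In the 6 pathway lists, 0 genes passed the adjusted threshold of limma or of DESeq2 with or without the block, and 0 had an unadjusted p under 0.05 by limma.

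The genes whose levels ran closest to those of *Ptgs2* and of *Ptger4* were sought among 9109 genes with a mean of at least 10 CPM, as Pearson's r of log2(normalised reads + 1) over the 6 libraries. For *Ptgs2* these were *Snx9* (r = 0.982), a sorting nexin of endocytosis, *Sec61a2* (r = 0.976), a subunit of the endoplasmic reticulum translocon, and *Raet1e* (r = 0.975), a ligand of the receptor NKG2D. They ran along with it over smaller ranges, *Snx9* from 3903 to 6951 and *Raet1e* from 163 to 1439 normalised reads. *Sec61a2* was nearly flat, from 1325 to 1461 normalised reads. All of them were lowest in CharmeKO replicate 3 and highest in WT replicate 3. For *Ptger4* they were *Frrs1* (r = 0.995), a ferric reductase, *Grn* (r = 0.994), progranulin, and *Slc6a8* (r = 0.993), the creatine transporter. *Grn* held 28334, 21056 and 17600 normalised reads in WT and 32975, 22309 and 11749 in CharmeKO, the same order of libraries by replicate number as *Ptger4*. With 6 points that share their libraries, 18 genes exceeded r = 0.95 for *Ptgs2* and 94 for *Ptger4*, so that the leading genes stand among many.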

How the data were processed

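Strand-specific libraries of polyadenylated RNA from 6 CF cultures were used. The authors aligned reads with STAR, counted those of a single place and gene on the reverse strand with an Ensembl annotation, removed genes with few reads and deposited a DESeq2-normalised read signal. Dividing by the step of each library returned whole reads for 100% of 116676 values (within 6.29e-09).

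Sample titles gave groups and replicate numbers. The main test was limma 3.58.1 (R 4.3.3, mean-variance trend, genotype alone) on log2(value + 1), a scale that understates changes of scarce genes, two-sided, with Benjamini-Hochberg adjustment over the 15948 genes tested. edgeR 4.0.16 and DESeq2 1.42.0 on the recovered reads, other pseudocounts, filters and scalings, a replicate block and left-out libraries were alternatives. The numbers were taken to pair the libraries, as deviations from group means correlated by 0.762, 0.514 and 0.217, all above 0.1, although WT replicate 2 with CharmeKO replicate 3 gave 0.222. Scripts were tested on simulated data.

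Coordinates and exon lengths were those of GENCODE M21 (GRCm38), joined by Ensembl identifier because the sources name several builds. Members and gene lists were chosen with earlier results of these data known. Named were all 10 members and, per other list, the gene highest in CPM per kb plus genes of at least 1 CPM without overlap of the groups, up to 3, with exceptions stated.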

Additional observations from a re-analysis of the deposited data

How the results depend on the processing

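Pseudocounts, filters and scalings within limma changed no direction and no call among the 10 genes, but the filter of 10 reads in every library of a group dropped *Ptger2*, *Ptgfr* and *Hpgd*. DESeq2 called 8 genes of the table, and 64 with the replicate block, against 0 by limma and edgeR with or without the block. None was a member, and the block changed no other call. edgeR and DESeq2 turned *Ptger4* (0.094 and 0.090), *Ptgfr* (0.12 and 0.12) and *Hpgd* (-0.41 and -0.41, or -0.36 in DESeq2 with the block). Leaving out a pair turned *Ptgs1* (-0.017 without pair 1, -0.29 without pair 3), *Ptgs2* (0.040), *Ptger4* (0.20) and *Ptgir* (0.50) without pair 3, *Hpgd* without pair 2 (-1.70), and the *Ptgs2* over *Ptgs1* ratio without pair 3 (0.33). The cause was not tested. With single libraries left out, the log2 difference ran from -0.41 to 0.25 for *Ptgs1*, -2.30 to -0.55 for *Ptgs2*, -1.66 to 0.048 for *Ptger2*, -0.71 to 0.47 for *Ptger4*, -2.05 to 0.88 for *Ptgfr*, -1.21 to 0.15 for *Ptgir* and -1.72 to 2.87 for *Hpgd*, and that of the ratio of *Ptger4* over *Ptger2* from -0.57 to 1.82, with 0 members called throughout. Groups of 3 libraries were too small for a search for outlying samples, and depth limited *Ptger2*, *Ptgfr* and *Hpgd*, which had under 10 reads in at least 2 libraries.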
